A study of Mus musculus with 8 samples.

Results

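The genes described here are 63 transcription factor genes, and genes named after transcription factors, to which regions bound by p53 more strongly after bleomycin (BLM) were assigned in mouse alveolar organoids. They were picked by symbol from the 1425 genes of the authors' table of genes near BLM-enriched regions: symbols that begin with Zfp, Zbtb, Klf, Fox, Gata, Tbx, Irf, Runx, Nfi, Nr1 to Nr6, Hes, Lhx, Pax, Pou, Tcf, Cebp, Atf or Stat, with *Zfp809* left out. Sox, Hox, Hey, Tead and Meis symbols were searched for as well and gave no member. The table itself was chosen by the measured difference between BLM and CTRL libraries, so that a stronger signal after BLM at these regions is a description and not a finding. The members hold 76 of the 909 regions that were assigned to a gene, out of 915 enriched regions in all, in 81 pairs of a gene and a region.

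Chromatin immunoprecipitation with an antibody against p53, followed by sequencing, was done in alveolar organoids, which had been grown from alveolar type II (AT2) cells sorted from wild-type mice. For 24 h they received either DMSO as vehicle (CTRL) or 100 µM BLM, with 2 libraries in each group. BLM is a drug that breaks DNA strands and is used to injure the lung. The study's description gives 2 independent mice without tying single libraries to them, so that the spread between 2 libraries of a group may be technical. Peak lists carry no expression values, and the identity of the cells could not be checked against marker genes.

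The 4 lists held 39577 to 50430 peaks each. For a peak the lists give a fold enrichment, the height of the ChIP signal over the local background, and here each peak was also given a percentile by fold enrichment within its own list, with 100 as the highest. A region counted as called in a library where a peak covered at least 1 bp of it. The depth of the libraries is unknown from these lists, and so no counting interval is given. With 2 libraries against 2, an exact two-sided permutation test cannot go below p = 0.333, and no test between the groups was made.

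p53 is a transcription factor that is held at a low level in unstressed cells and accumulates after DNA damage. It binds DNA as a tetramer, at response elements built from 2 copies of a decamer, in promoters as well as in introns and between genes. Many transcription factor genes lie in gene-poor stretches with long-range regulatory DNA, and in the alveolus factors such as GATA6, FOXP1, FOXP2 and KLF4 take part in the development or differentiation of the epithelium. Zfp genes form the largest group here, many of them encoding KRAB zinc finger repressors that sit in clusters of similar genes.

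The DNA just upstream of 3 members is shown first. Their enriched region covers the transcription start site (TSS) of the authors' table, so that a region could be set beside a promoter without a long distance between them. The sequences are RefSeq promoters of GRCm38.p6, 250 bases up to the start, printed 5′ to 3′ on the strand of the gene. *Zfp365* lies at chr10:67912663-67912912 on the minus strand, *Zfp958* (the last of its 3 RefSeq starts) at chr8:4613090-4613339 on the plus strand, and *Zfp112* at chr7:24112070-24112319 on the plus strand. Capitals mark matches to the p53 decamer, with up to 1 mismatch in *Zfp365* and with no mismatch in *Zfp958*.
Zfp365: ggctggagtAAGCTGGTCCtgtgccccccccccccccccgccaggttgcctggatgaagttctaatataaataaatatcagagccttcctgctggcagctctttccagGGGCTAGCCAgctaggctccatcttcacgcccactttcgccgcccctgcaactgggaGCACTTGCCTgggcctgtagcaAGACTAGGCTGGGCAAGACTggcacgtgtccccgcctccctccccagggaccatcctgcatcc
Zfp958: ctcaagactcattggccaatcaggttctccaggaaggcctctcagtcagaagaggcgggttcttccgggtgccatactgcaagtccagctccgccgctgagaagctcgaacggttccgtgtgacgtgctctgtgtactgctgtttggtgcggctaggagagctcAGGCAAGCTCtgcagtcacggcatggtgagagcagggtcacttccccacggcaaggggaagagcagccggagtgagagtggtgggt
Zfp112: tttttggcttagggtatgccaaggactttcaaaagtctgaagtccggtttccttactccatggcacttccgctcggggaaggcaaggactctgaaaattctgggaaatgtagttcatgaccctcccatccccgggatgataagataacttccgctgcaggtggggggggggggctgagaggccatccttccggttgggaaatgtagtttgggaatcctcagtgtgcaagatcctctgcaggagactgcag
*Zfp365* held 5 decamers with 1 mismatch each, and those that begin 63 and 53 bases before the start lie side by side as AGACTAGGCTGGGCAAGACT, a run of 20 bases with 2 mismatches in all. It was the 1 of 63 member promoters (1.59%) with such a side-by-side pair, which 0.898% of the 1337 promoters of other table genes and 0.466% of all 32851 RefSeq promoters of 300 bases held. *Zfp958* held 1 exact decamer, AGGCAAGCTC, 86 bases before this start. The first of its 3 RefSeq starts held none, even with 1 mismatch. No position was converted between builds, so which of the 3 starts the enriched region covers was not determined. *Zfp112* held none, even with 1 mismatch, and the same was true of *Foxo3*. RefSeq promoters were found for 43 of the 63 members, some with several starts, 63 promoters in all. An exact decamer was in 3 of them (4.76%), of which 2 are overlapping starts of *Zfp958* with the same site, and in 8.36% of all promoters, and up to 1 mismatch was found in 63.5% and 70%. A match to the letters is not a bound site, and the starts of RefSeq need not be the starts used in the authors' table. The motif was searched in promoters only, since no genome of the build of the regions was used here.

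Members lay farther from their regions than the other genes did. The nearest region was a median of 82492 bp from the TSS of a member (quartiles 29351 and 250346 bp, range 21 to 906759 bp), against 53068 bp for the other 1362 genes of the table (quartiles 15183 and 143838 bp). When each region was given to its nearer gene only, the median was 37738 bp for the 33 members left and 23930 bp for the 782 other genes left. A region lay within 5 kb of the TSS for 6 members (9.52%), where 13.1% of the other genes had one. Another 17 members (27%) had their nearest region above 5 kb and within 50 kb, against 35.4% of the other genes, and 40 members (63.5%) had it above 50 kb, against 51.5%. In the plot of distances the curve of the members runs below that of the other genes at both the 5 kb and the 50 kb line.

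**Figure D1:**
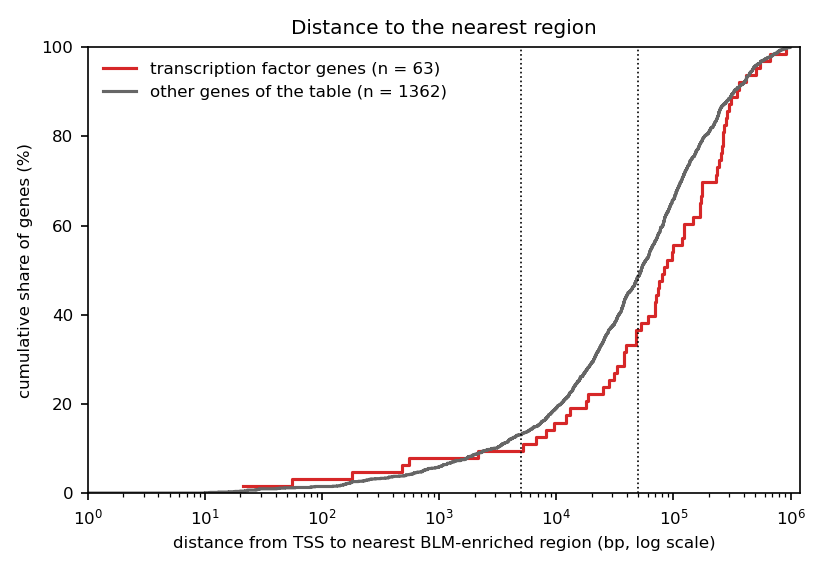
Cumulative share of genes (y axis, %) by distance from the TSS to the nearest BLM-enriched region (x axis, bp, log scale) for the 63 transcription factor genes (red) and the 1362 other genes of the table (grey). Dotted lines mark 5 kb and 50 kb, and the medians are 82492 bp for the members and 53068 bp for the others.

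A larger share of the members than of the other genes had several regions. There were 16 members with 2 or more regions (25.4%) and 175 such genes among the others (12.8%). *Foxo3* and *Zbtb20* had 3 regions each, and the other 14 had 2, whereas 8 other genes had 4 or more, up to 5.

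Most regions also belonged to a second gene. In 72 of the 81 pairs the region had another gene assigned, and the member was the nearer of the pair in 30 (41.7%), where the other genes were nearer in 50.4% of their 1432 such pairs. For 30 of the 63 members no region of theirs had the member as its nearest gene. The remaining 33 were the nearest gene of at least 1 region, as were 782 of the 1362 other genes. In 20 of the 72 pairs (27.8%) the second gene lay within 50 kb of the region, against 42% of such pairs of the other genes. It lay within 5 kb in 3 of the 72 pairs (4.17%, against 5.66%). These were *Thrb*, a thyroid hormone receptor, 2110 bp from the region assigned to *Nr1d2*, *Afg1l* 3427 bp from the farthest region of *Foxo3*, and *Zfp809*, a repressor of retroviral sequences, 1367 bp from the region of *Zfp599*. There were also 5 regions that belonged to a pair of members, among them those of *Tcf12* and *Zfp280d*, *Nr5a2* and *Zfp281*, *Zbtb10* and *Zfp704*, and of *Zfp51* and *Zfp53*, so that 10 members shared a region with another member and their values are not independent.

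All 76 regions were called in both BLM libraries, which the choice of the regions all but fixes. Of these, 45 (59.2%) had no peak in either CTRL library, against 56.9% of the 833 regions assigned to other genes only. Over all 63268 joined regions of the 4 lists, 2.03% had this pattern. A peak in all 4 libraries was found at 20 member regions (26.3%), against 30.6% of the other regions, and 11 (14.5%) had a peak in 1 CTRL library. The shares of the members were thus close to those of the other enriched regions.

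By strength, the member regions ranked high in both BLM lists. The median fold enrichment was 10.8 and 11.1 in BLM replicates 1 and 2, and the median percentile was 85.1 and 85.3, against 88.9 and 86.5 for the other regions. Where a CTRL peak was called, the median fold enrichment was 6.73 over 28 regions in CTRL replicate 1 and 9.08 over 23 in CTRL replicate 2, at percentiles of 43.2 and 64.6. The CTRL medians thus lay farther apart than the BLM medians, over regions that were not the same in both CTRL libraries. In the highest 1% of both BLM lists were 14 member regions (18.4%), against 19.8% of the other regions. The gap between the BLM replicates at a region was a median of 8.14 percentile points (6.76 for the others). It was above 30 points at 12 of the 76 member regions (15.8%) and at 105 of 832 other regions (12.6%). Differences between single members that are smaller than this gap cannot be read as an order.

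Among the enriched regions, BLM percentiles were higher where CTRL peaks were called. A region with a CTRL peak had to be higher still in BLM to be listed, so that this order is a description and not a finding. The mean of both BLM percentiles had a median of 70.7 over the 45 regions without a CTRL peak, 89.4 over the 11 with 1 and 99.1 over the 20 with a peak in both. The other regions gave 72, 88.8 and 99.3. Ranked by their best region among the 1425 genes, the members had a median rank of 751, against 710.5 for the other genes. In the first 100 stood 5 of the members (7.94%, against 6.98% of the other genes). In the first 10% the shares were 7.94% of the members and 10.1% of the other genes.

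**Figure D2:**
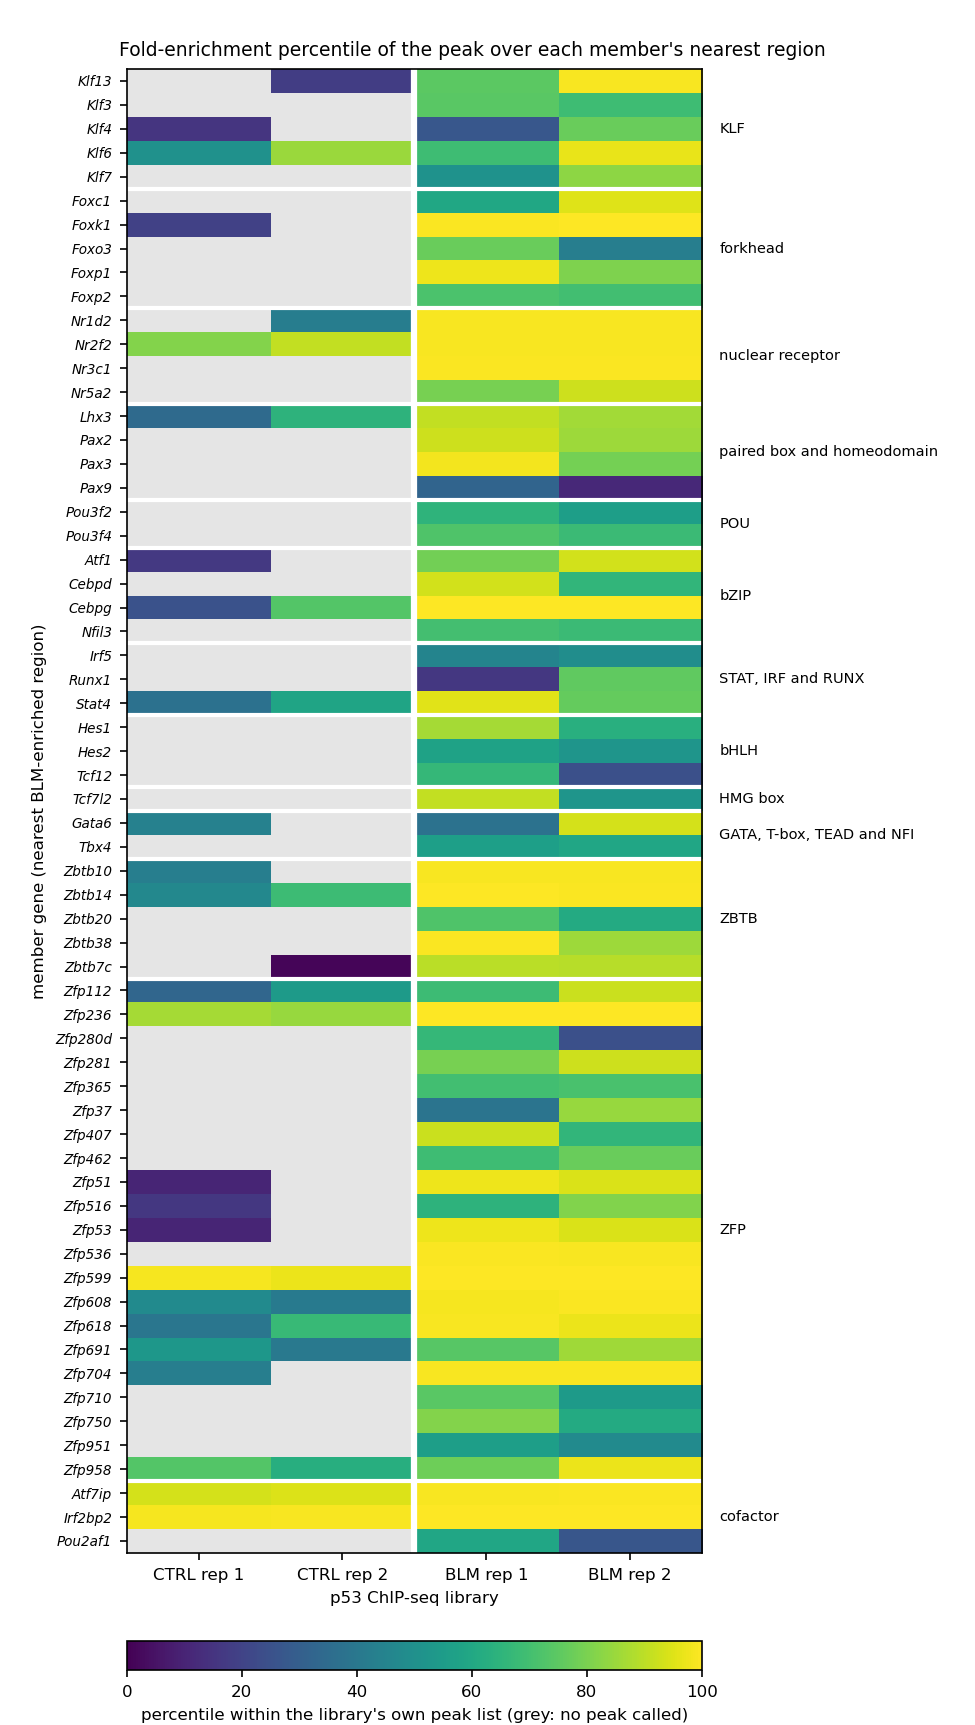
Percentile of fold enrichment (colour, 0 to 100) of the peak over the nearest enriched region of each member but 1 (rows, by family) in the 4 libraries (columns), with grey where no peak was called. Every row is coloured in both BLM columns, while 35 rows are grey in both CTRL columns.

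Only 6 members had a region within 5 kb of the TSS, 4 of them Zfp genes. *Zfp112*, a KRAB zinc finger gene, had its region 21 bp upstream of the TSS. The fold enrichment there was 6.01 and 7.78 in CTRL replicates 1 and 2 and 8.2 and 13.5 in BLM replicates 1 and 2, so that both BLM values were higher, the lower of them narrowly. The summits of the 4 peaks lay between 27 and 47 bp upstream of the TSS.

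*Zfp365*, whose human counterpart has been linked to genome stability after DNA damage, had its region 55 bp upstream of the TSS. No peak was called there in CTRL, and the fold enrichment was 8.34 and 8.58 in BLM, at percentiles of 69.6 and 71.1. The summits were 49 and 73 bp upstream of the TSS in the 2 BLM libraries. The side-by-side decamers printed above begin 63 and 53 bases before the RefSeq start, which is on another build. These positions were not aligned, so that the summits cannot be placed on the decamers. No other peak of any library lay within 3 kb of this TSS.

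*Zfp958* had a pair of regions. The nearer, 179 bp upstream, had a fold enrichment of 10.4 and 8.75 in CTRL and of 9.44 and 17 in BLM, and the groups overlapped. The other, 1010 bp upstream, had 12.7 and 6.1 in CTRL and 22.8 and 27.1 in BLM, with no overlap. Within the gene it was thus the region farther from the TSS that stood higher in both BLM lists, at percentiles of 99.03 and 99.42. *Zfp750*, a gene of epidermal differentiation, had a region 549 bp upstream that was called in BLM alone, with a fold enrichment of 10 and 7.53.

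*Atf7ip* encodes a partner of the histone methyltransferase SETDB1 and is no DNA-binding factor itself. Its region 484 bp downstream of the TSS had a fold enrichment of 17.4 and 18.2 in CTRL and of 24.1 and 24.7 in BLM, so that all 4 libraries had strong peaks and both BLM values were the higher. All 4 peaks here were wide, from 1107 to 1250 bp, and covered the TSS. *Foxo3*, a forkhead factor held in the cytoplasm by insulin signalling, had its nearest region 2146 bp downstream of the TSS, at 9.24 and 6.19 in BLM and with no CTRL peak. Over the *Foxo3* TSS itself all 4 libraries had a peak, with a highest fold enrichment of 13.2 and 13.9 in CTRL and of 10.4 and 15.9 in BLM. Just beyond the 5 kb line were *Atf1* at 5226 bp and *Hes2* at 6761 bp.

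**Figure D3:**
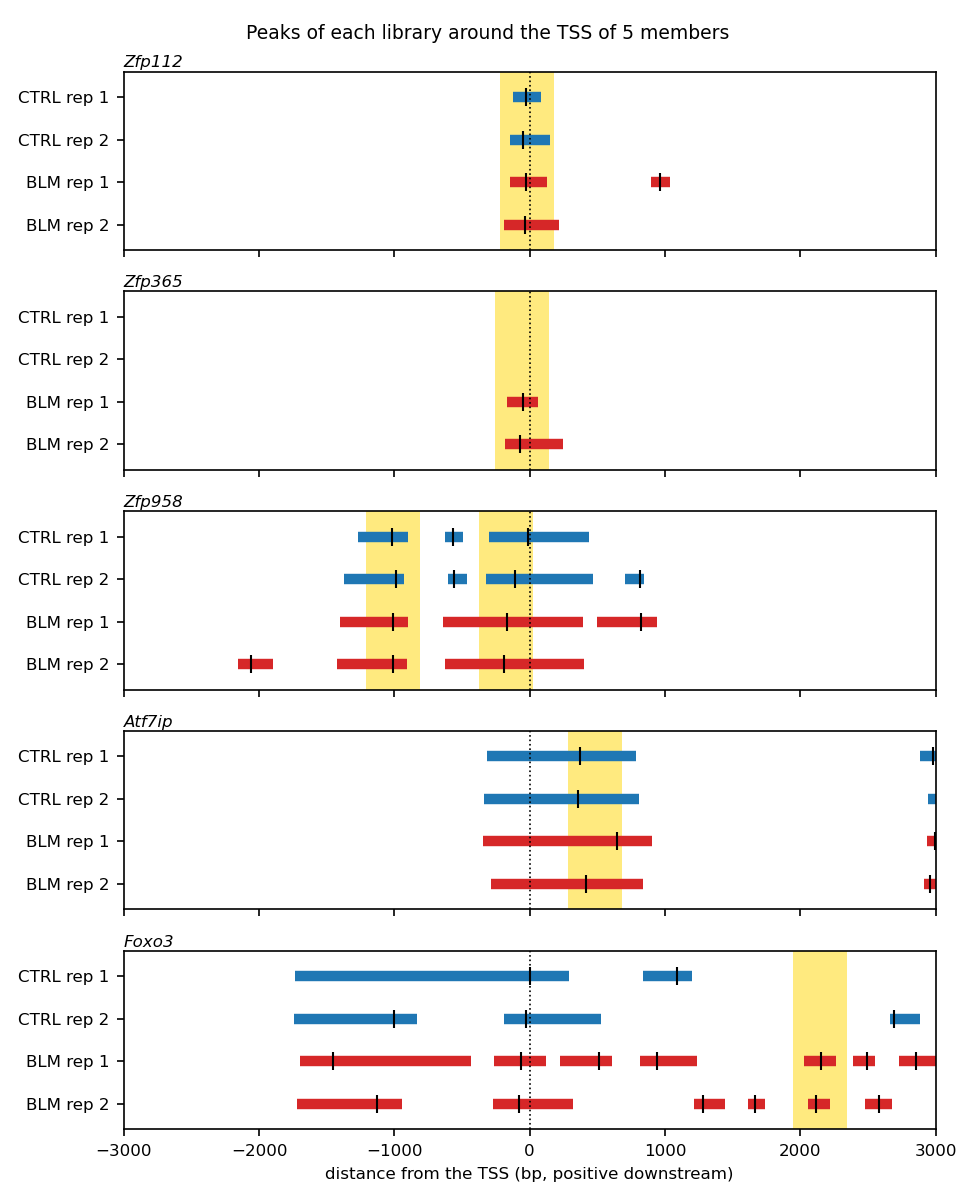
Peaks of each library (bars, blue for CTRL and red for BLM, ticks at the summits) and the BLM-enriched regions (yellow) within 3 kb of the TSS of 5 members, by distance from the TSS (x axis, bp). At *Zfp365* only the 2 BLM libraries had a peak, whereas *Zfp112*, *Zfp958* and *Atf7ip* had peaks in all 4 libraries over the yellow region.

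By family, none but the Zfp genes, the forkhead genes and the cofactors came within 5 kb. The counts of regions without a CTRL peak given for each family are to be read against the 56.9% of the regions of other genes, and the families are small. The 5 Klf genes encode zinc finger factors of epithelial differentiation and growth, and their nearest regions lay 60119 to 416473 bp away. *Klf4*, known for its part in pluripotency and in barrier epithelia, had a region 189425 bp upstream that was assigned to no other gene. Its fold enrichment was 5.06 and 3.6 in CTRL and 44.1 and 23.5 in BLM. The CTRL percentiles of 18.2 and 1.51 were among the lowest of any member region, and the BLM percentiles of 99.79 and 99.15 among the highest. A second *Klf4* region, 175474 bp downstream and only 6949 bp from *Rad23b*, a DNA repair gene, had 4.91 in CTRL replicate 1, none in CTRL replicate 2, and 5.33 and 9.46 in BLM.

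*Klf6*, a growth suppressor, had a pair of upstream regions that were called in all 4 libraries. The farther, 800735 bp away and nearer to *Akr1e1*, had a fold enrichment of 12.4 and 16.4 in CTRL and of 26.6 and 30.5 in BLM. The nearer, 416473 bp away, had 7.37 and 13.3 in CTRL and 8.26 and 16.6 in BLM, and here replicate 2 was the higher in both groups and the groups overlapped. *Klf13* (60119 bp) had 5.1 in CTRL replicate 2 and a wide gap between its BLM values of 8.94 and 23.7. *Klf3* and *Klf7* were called in BLM alone, at 6.71 to 10.5.

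The forkhead genes had 6 of their 7 regions free of CTRL peaks, where 56.9% of the other regions were. *Foxk1*, a repressor of autophagy and metabolic genes, had a region 25110 bp downstream, with 5.15 in CTRL replicate 1 and 30 and 35.9 in BLM. Besides its nearest region, *Foxo3* had one 15401 bp downstream at 5.23 and 12.8 in BLM, and one 198386 bp upstream at 24 and 17.3 that lay close to *Afg1l*. *Foxp1* and *Foxp2*, which act in airway and alveolar epithelium, had regions 117899 and 347687 bp downstream, at 17.1 and 10.1 and at 8.56 and 8.46 in BLM. *Foxc1*, at 504999 bp, was 27108 bp from *Gmds* in the same assignment, and its BLM values of 7.34 and 15.3 stood at percentiles of 59.7 and 95.2.

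The nuclear receptors, a family of which many are switched on by hormones or metabolites, had a median mean BLM percentile of 99.06 over 5 regions. It was 93.1 over 7 regions of Zbtb genes and 90.7 over 5 of cofactors, differences that are within or near the gap between replicates. *Nr3c1*, the glucocorticoid receptor, had a region 362311 bp downstream with no CTRL peak and a fold enrichment of 31.8 and 27.9 in BLM, the highest among member regions called in BLM alone. *Nr2f2*, a factor of vein and mesenchyme identity, had 12.3 and 15.8 in CTRL and 22.1 and 23.5 in BLM at 69178 bp, and 6.55 in CTRL replicate 1 with 28.9 and 31.7 in BLM at 825706 bp. *Nr1d2*, a repressor of the circadian clock, was 255488 bp from the region by the TSS of *Thrb*, with 6.67 in CTRL replicate 2 and 22.6 and 23.4 in BLM. *Nr5a2* shared its region with *Zfp281* and had 9.62 and 13.6 in BLM.

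*Cebpg*, *Zbtb20* and *Zfp236* had the member regions of highest mean BLM percentile, which cannot be put in order among themselves. *Cebpg*, a bZIP gene and a factor of the amino acid and oxidative stress response, had a region 82492 bp downstream, with a fold enrichment of 5.48 and 10.4 in CTRL and of 81.4 and 69.2 in BLM. It ranked 35 of the 1425 genes by its best region, and *Pepd*, a peptidase gene, was nearer at 61702 bp. *Cebpd*, an acute-phase factor, and *Nfil3*, a repressor in immune cells, were called in BLM alone at 173363 and 230896 bp, with values of 13.5 and 8 and of 8.36 and 8.23. *Atf1* had 4.99 in CTRL replicate 1 and 9.55 and 14 in BLM.

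The median mean BLM percentile was 62.1 for the regions of STAT, IRF and RUNX genes, which act in immune signalling and blood cells, and 74.6 for those of bHLH genes. *Stat4*, the effector of interleukin 12, lay 80550 bp from a region with 6.3 and 8.24 in CTRL and 15.1 and 9.36 in BLM. *Irf5*, a factor of Toll-like receptor signalling, had a pair of neighbouring regions 18566 and 18976 bp downstream, at 6.37 and 6.58 and at 11.4 and 8.09 in BLM, with no CTRL peak at either. *Runx1* had 4.78 and 9.28 in BLM alone.

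*Hes1*, a Notch target that represses other factors, had a pair of upstream regions, of which the farther at 242112 bp was the stronger, at 15.9 and 20.5 against 11.1 and 7.7 in BLM. *Hes2* had 7.16 and 6.81 in BLM at 6761 bp. *Tcf12*, an E protein, had 7.96 and 5.18 at 38946 bp and 10.5 and 9.87 at 221820 bp. None of the 5 regions of the bHLH genes had a CTRL peak, and the same held for *Tcf7l2*, the Wnt effector, with 12.5 and 6.81 at 234498 bp.

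Among developmental regulators, *Gata6* had a region 169554 bp upstream whose only CTRL value, 6.79 in replicate 1, lay between its BLM values of 5.93 and 14.2. Its BLM libraries thus stood far apart, at percentiles of 37.7 and 93.5. *Tbx4*, a gene of lung mesenchyme, had 7.09 and 7.35 in BLM alone at 245203 bp. *Pax2*, *Pax3* and *Pax9* were called in BLM alone, *Pax3* at 19.7 and 9.84 with its region 663787 bp away and 17963 bp from *Epha4*, and *Pax9* at 5.57 and 4.44, at a mean BLM percentile of 21.8. *Lhx3* had 6.11 and 9.08 in CTRL and 12.5 and 11.3 in BLM. *Pou3f2* and *Pou3f4*, neural factors, had values of 7.1 to 8.67 in BLM alone.

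The 5 Zbtb genes encode zinc finger factors that carry a BTB domain and mostly repress. *Zbtb20* had 3 regions, all more than 500 kb from its TSS and all nearer to *Tigit*, an immune receptor gene. The farthest, at 666608 bp, had a fold enrichment of 18 and 14 in CTRL and of 73.1 and 75.9 in BLM, and ranked 38 of the 1425 genes. The others had no CTRL peak, with 8.67 and 7.5 at 551125 bp and 15.2 and 12.8 at 557983 bp. *Zbtb14* (37969 bp) had 6.98 and 9.64 in CTRL and 39 and 30.2 in BLM. *Zbtb38*, a reader of methylated DNA, had 26.3 and 11 in BLM alone at 47667 bp, *Zbtb10* 22.3 and 22 in BLM with 6.66 in CTRL replicate 1, and *Zbtb7c* 12.1 and 12.2 with 3.6 in CTRL replicate 2.

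The 21 Zfp genes had 25 regions, 14 without and 8 with peaks in both CTRL libraries. *Zfp236* had 14 and 13.1 in CTRL and 77.1 and 68.2 in BLM at 145877 bp, with *Mbp* nearer at 71844 bp. Close to it, at 147034 bp, a second region had the weakest BLM value of all member regions, 3.23, and 7.19 in the other BLM library. *Zfp599* had 25.1 and 20.7 in CTRL and 67.1 and 59.4 in BLM, at the region next to *Zfp809*.

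Further Zfp genes had regions high in both BLM lists. *Zfp608* was the only gene of both its regions. The nearer, at 12048 bp, had 7.11 and 6.58 in CTRL and 20.4 and 27.5 in BLM, and the other, at 276115 bp, had 14.7 and 24 in BLM alone. *Zfp536*, a gene of neurons, had 26 and 23.6 in BLM alone at 74644 bp and 7.57 and 6.01 at 555509 bp. *Zfp51* and *Zfp53*, neighbours in a cluster, shared a region with 4.54 in CTRL replicate 1 and 17.3 and 14.8 in BLM.

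The remaining Zfp genes covered a wide range. *Zfp618* had 6.44 and 9.46 in CTRL and 23.4 and 17.5 in BLM at 299533 bp, and *Zfp691* had 7.59 and 6.56 in CTRL and 8.85 and 11.2 in BLM at 48023 bp. *Zfp516* had the longest distance, 906759 bp, with 4.97 in CTRL replicate 1 and 7.79 and 10.1 in BLM. *Zfp37*, *Zfp280d*, *Zfp281*, *Zfp407*, *Zfp462*, *Zfp710* and *Zfp951* had no CTRL peak and BLM values of 5.18 to 13.6, and *Zfp704* had the values of the region it shares with *Zbtb10*.

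Of the cofactors, *Irf2bp2*, a corepressor that binds IRF2, had a region 9481 bp upstream with 24.4 and 25.1 in CTRL and 70.8 and 57.5 in BLM. Its second region, 339024 bp away and 12830 bp from *Tomm20*, had 12.8 and 10.4 in BLM alone. The second region of *Atf7ip*, 19290 bp upstream, had 5.19 and 8.7 in CTRL and 11.6 and 14 in BLM. *Pou2af1*, a coactivator in B cells, had 7.31 and 5.33 in BLM alone at 37738 bp.

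**Figure D4:**
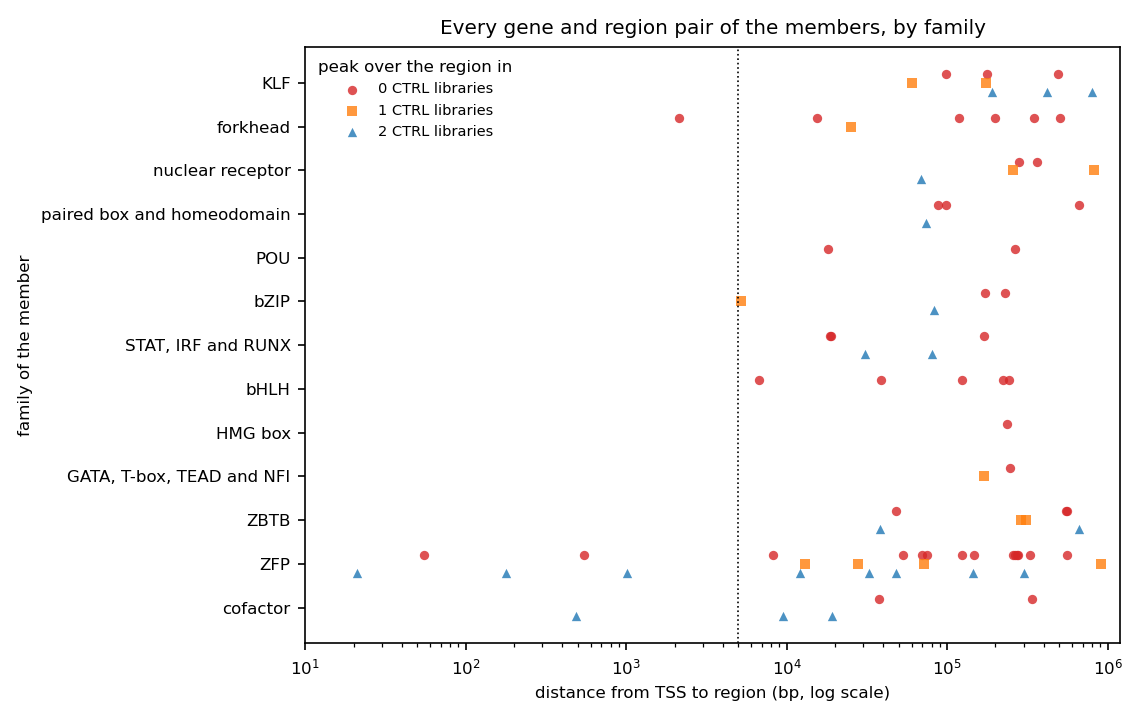
Distance from the TSS to the region (x axis, bp, log scale) for every pair of a member and a region, by family (y axis), with the symbol giving how many CTRL libraries had a peak over the region. The dotted line marks 5 kb, left of which lie 4 Zfp genes, *Foxo3* and *Atf7ip*.

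The 20 regions called in all 4 libraries allowed a comparison of levels in each library. Both BLM percentiles were above both CTRL percentiles at 19 of them, where 218 of 255 other regions (85.5%) did the same, and the exception was the nearer region of *Klf6*. By fold enrichment this was so at 18, with the nearer region of *Zfp958* as the other exception. The median difference between the mean BLM and the mean CTRL percentile was 34.9 points, against 27.6 for the other regions. Since these regions were selected for their higher signal in BLM, this describes the size of the difference only. No member had a nearest region that stood lower in both BLM lists than in both CTRL lists.

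**Figure D5:**
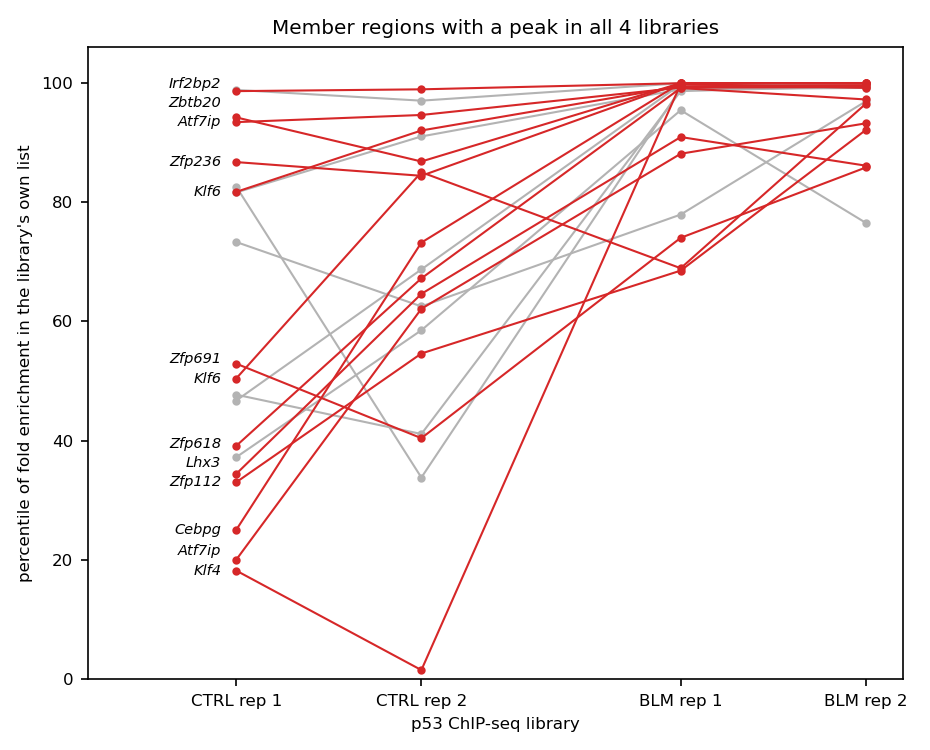
Percentile of fold enrichment (y axis) in the 4 libraries (x axis) of the 20 member regions with a peak in all of them, 1 line per region, with some named in red. The line of *Klf4* rises from CTRL percentiles of 18.2 and 1.51 to BLM percentiles of 99.79 and 99.15, and the nearer *Klf6* region is the one whose groups overlap.

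Peaks of any kind over the TSS of the members, within 1 kb on each side, were counted as well. The count is not independent of the enriched regions, which lie in this window at *Atf7ip*, *Zfp112*, *Zfp365* and *Zfp958*. A position of the TSS could be placed for 17 members whose nearest region lay within 50 kb. In CTRL replicates 1 and 2 there was a peak at 12 and 12 of them, and in BLM replicates 1 and 2 at 12 and 13. All 4 libraries had a peak at 11 of the 17 (64.7%), against 337 of 512 other genes (65.8%), and none had one at *Irf5*, *Pou2af1*, *Pou3f2* and *Zfp53*. Most of these TSS peaks were thus present without BLM. Of the 17, only *Zfp365* had one in both BLM libraries and no CTRL library, as had 12 of the 512 other genes. At *Zfp365* this is the peak over its enriched region, so that it repeats the choice of the regions. *Zfp750*, with its region 549 bp upstream called in BLM alone, was not among the 17.

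At some starts the peak stood lower in BLM by fold enrichment, and at *Zbtb38* alone by percentile as well. No count of such starts among the other genes is given, so that this cannot be called particular to the members. At *Zbtb38* the highest peak reached a fold enrichment of 18.3 and 16.4 in CTRL but of 7.95 and 5.45 in BLM, at percentiles of 94.6 and 92.2 against 66 and 30.1, whereas its enriched region 47667 bp upstream was called in BLM alone. At *Zbtb14* it was 21 and 18.6 in CTRL and 11 and 15.7 in BLM, with percentiles that overlapped. At *Zfp608* the fold enrichment was 11.1 and 12 in CTRL and 10.4 in each BLM library, while the BLM percentiles of 83.3 and 82.3 were above those of 76.3 and 80.7 in CTRL, so that its order depended on the scale. At *Atf1*, *Foxo3*, *Irf2bp2*, *Tcf12* and *Zfp37* the groups overlapped, and at *Zfp691* 1 BLM library had no peak.

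The symbols were also counted against the annotation. Of 21900 protein-coding symbols in RefSeq, 6.28% were in the authors' table, and of the 716 that match the rule 63 were (8.8%). The share was 5.26% of 399 Zfp symbols and 13.2% of the 317 others. It was 5 of 17 Klf symbols, 3 of 9 Pax symbols, 4 of 24 nuclear receptor symbols, 5 of 46 Fox and 5 of 41 Zbtb symbols, and 0 of 39 Hox and 0 of 19 Sox symbols. On chromosome 18 lay 7 members (11.1%), against 2.42% of the other genes of the table, and 5 of these 7 were *Zfp236*, *Zfp407*, *Zfp516*, *Zfp608* and *Zbtb7c*, with *Gata6* and *Nr3c1* as the others. Chromosome 4 also held 7 members (11.1%, against 6.02% of the other genes), and chromosome 7 held 6 (9.52%, against 6.98%). These shares are a description, with no test.

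From a list of 30 transcription factors of lung development and alveolar epithelium, 11 were members (36.7%), where 8.8% of all symbols that match the rule were. The other 19 were not in the table, among them *Sox2*, *Sox9*, *Foxa1*, *Foxa2* and *Cebpa*. The 11 were *Gata6*, *Foxp1*, *Foxp2*, *Klf4*, *Hes1*, *Nr3c1*, *Nr2f2*, *Cebpd*, *Tbx4*, *Runx1* and *Tcf7l2*. None had a region within 50 kb, where 48.5% of the other genes of the table had one. Of all members, 63.5% had their nearest region above 50 kb. The median distance was 173363 bp for the 11, against 82492 bp for all members. Of their 14 regions, 9 were called in BLM alone, a share near the 56.9% of the other regions. A panel of 22 known p53 target genes gave the contrast in distance. Of these, 15 were in the table, all 15 with a region within 5 kb, at a median of 521 bp, and 22 of their 26 regions were called in all 4 libraries, with a median mean BLM percentile of 99.6. These lists were drawn up with earlier results of the same data known, and they support nothing beyond the description.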

How the data were processed

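p53 ChIP-seq peak lists of 4 libraries of alveolar organoids (CTRL and BLM, 2 each, grouped by the submitters' labels) were used. No peak lists of the 4 input libraries were analysed here. The submitters' processing notes name Trim Galore 0.6.7, Bowtie2 2.5.1, MACS3 3.0.0b1, DiffBind 3.8.4 and edgeR 3.40.2, with the builds mm39 and mm10. The authors deposited for each peak a fold enrichment (a ratio over local background), a score, and its p-value and q-value as −log10. The lowest −log10 q was about 2 in each list. The authors also deposited 915 enriched regions and a gene table made with GREAT 4.0.4, whose rule was 5 kb upstream and 1 kb downstream of the TSS, extended up to 1000 kb. Peaks and regions are on GRCm39, while the distances were computed by the authors on mm10, and no position was converted.

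Members and lists were chosen with earlier results of these data known. Overlaps of at least 1 bp were found with pandas 2.3.3 and numpy 2.4.6 (Python 3.11.15), tested on simulated data. Wilson intervals came from scipy 1.17.1, and plots from matplotlib 3.10.9. The peak of highest fold enrichment over a region gave its value. The TSS on GRCm39 was placed from the middle of a region and its distance, on the RefSeq strand, since 140 of 148 genes with 2 or more regions gave positions within 10 bp of each other. The genes named in the text were all members within 5 kb, the 10 of highest mean BLM percentile, those with the most regions, those of the lung list, and examples of each family. The alternatives changed the distance, the q-value, the overlap, the number of peaks, the window at the TSS, the ranking, the libraries and the genes counted. The motif could be searched in RefSeq promoters only. Genes of similar sequence, such as clustered Zfp genes, may share reads, and the handling of such reads is not given in the sources used here. Values of 1 member are not reported here.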

Additional observations from a re-analysis of the deposited data

How the results depend on the processing

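Of 58 alternative values for 10 results, 50 stayed near the value of the report, that is within its 95% Wilson interval for a share, within 1.5 times for a distance, or within the SD between replicates for a percentile. The Wilson intervals treat genes or regions as independent, and they are wide. For the share of members within 5 kb, 9.52%, the interval ran from 4.44% to 19.3%. Values of 18.2% with the nearer gene only and of 4.76% without Zfp symbols thus counted as near. The median distance fell to 37738 bp when each region was given to its nearer gene only, which left 33 members (23930 bp for the other genes). The share of member regions with a peak in both BLM libraries and in no CTRL library was 69.7% with the same number of peaks (39577) taken from every library, and ranged from 59.2% to 69.7% when 1 library was left out, the highest without CTRL replicate 1. The median BLM percentile, 85.2, has an SD of only 0.188 between the replicates, and was 83.3 at a −log10 q of at least 5, 84.9 with equal numbers of peaks, 86.3 when ranked by −log10 q, 84 without the genes not known as transcription factors (*Atf7ip*, *Irf2bp2*, *Pou2af1* and *Zfp365*) and 86.6 without Zfp symbols. The causes of these changes were not tested. The CTRL median, 53.9, was 43.2 in CTRL replicate 1 and 64.6 in CTRL replicate 2. No paired analysis was possible because the results come from no test, and the labels do not say that a replicate number marks a shared mouse. With 2 libraries a group, and a depth that is unknown here, a region without a CTRL peak may still hold signal under the threshold of the peak caller.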

Other observations

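Transcription factor genes whose symbols fall outside the rule were looked at in the same way, from a list of 136 such genes. Of these, 25 were in the table (18.4%, against 6.28% of all protein-coding symbols), and this list too was chosen with earlier results known. The median distance to the nearest region was 63741 bp, against 82492 bp for the members and 53068 bp for the 1362 genes that are not members. A region within 5 kb was found for 2 of the 25, *Thrb* and *Sp1*, where 9.52% of the members and 13.1% of the 1362 had one. *Sp1*, a widely expressed zinc finger activator, had its region 454 bp upstream of the TSS, with a fold enrichment of 20.4 and 18.8 in CTRL and of 57 and 60.5 in BLM. The nearest region of *Yap1*, the effector of Hippo signalling, had 49.2 and 48.1 in CTRL and 73.4 and 59.8 in BLM at 38833 bp.

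*Nfe2l2*, which encodes the oxidative stress factor NRF2, had a region 63741 bp upstream with 83.1 and 84.8 in CTRL and 62.1 and 86.4 in BLM, so that the groups overlapped. *Mybl1* had 41.1 and 50.9 in CTRL and 80.1 and 74.8 in BLM at 61076 bp. *Myc*, with 3 regions, had 4.36 in CTRL replicate 1 and 21.3 and 15.9 in BLM at its nearest, 53801 bp away. *Nkx2-1*, the lineage factor of lung epithelium, had 6.66 and 8.89 in CTRL and 13.1 and 10.2 in BLM at 131847 bp, and *Etv5*, a factor of AT2 cell maintenance, had 5.81 and 7.35 in BLM alone at 136946 bp. These genes were named after their values were seen.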
